A study of Rattus norvegicus with 16 samples.

Results

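Myelin and oligodendrocyte genes were followed in the hippocampus of stressed and unstressed rats through a list of 9 genes: Mbp, Mog, Mag, Mobp, Cnp, Mal, Cldn11, Olig1 and Olig2. They were found by matching the RefSeq names of the array probes to gene symbols. Of the 9 genes, 8 had a probe, out of 13888 symbols matched on the array, and Olig2 was not analysed here. The brightest probe stood for each gene. RNA from whole hippocampus of male Sprague-Dawley rats, which weighed 250 g when bought, was labelled with Cy3 and measured on 16 single-colour arrays, 4 for each of 4 groups. Of these groups, 3 had gone through chronic mild stress for 8 weeks, a schedule of changing small stressors, and were labelled depression-susceptible, anxiety-susceptible and insusceptible. The fourth, control, was kept free of it. Neither the criteria for the 3 outcomes nor whether a group's 4 arrays came from separate animals was stated in the labels.

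Oligodendrocytes wrap axons in layers of their own membrane, and compaction of these layers into myelin speeds conduction. In the hippocampus such cells lie mainly along the fibre tracts, the alveus and fimbria, and are scattered through the layers of neurons. Mbp encodes myelin basic protein, which holds the inner membrane faces together. Mobp encodes another small basic protein of compact myelin. Cnp encodes a phosphodiesterase of the cytoplasmic channels in the sheath, and Cldn11 a claudin that forms the tight junctions between its layers. Mal encodes a membrane protein that takes part in sorting cargo to myelin membrane. Mag sits on the innermost layer facing the axon and Mog on the outermost surface. Olig1 and Olig2 encode helix-loop-helix transcription factors of the oligodendrocyte lineage.

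All values below are log2 processed signal of a probe minus the 75th percentile of its own array, called the level. All 8 genes were well above background on all 16 arrays, and 5 of the 6 hippocampal neuron markers tested were too (a list made after seeing the data). Arrays that shared a scan time in the file headers were taken as 1 slide. Slides 1 and 2 each held 2 depression-susceptible and 2 control arrays, while all anxiety-susceptible arrays lay on slide 3 and all insusceptible ones on slide 4. Slides 3 and 4 were scanned on a later day, with a 75th percentile of 1077 to 1248 against 2997 to 3382 on slides 1 and 2. Group and slide therefore cannot be told apart for the anxiety-susceptible and insusceptible arrays. On slides 1 and 2 depression-susceptible RNA was at positions 3 and 4 and control RNA at positions 1 and 2, so group and position cannot be told apart there either. Where arrays shared both group and slide, their variance was 0.602 to 1.01 times that expected from repeated spots within an array. Such arrays were averaged, which left 6 samples: 2 depression-susceptible, 1 anxiety-susceptible, 1 insusceptible and 2 control. Standard errors (SE) and p-values come from a limma fit to these 6 samples with Benjamini-Hochberg adjustment over all probes tested and a threshold of 0.05. They measure the spread between slides 1 and 2, which were scanned on the same day, and not between animals. A group with 1 sample was assumed to have the same spread as the rest. Differences between scan days are not part of that spread. The anxiety-susceptible and insusceptible samples are nevertheless compared with control across scan days.

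Across the stressed groups the genes split by direction. Mbp and Cnp lay below control in each of them, by 0.41 to 0.85 for Mbp and 0.44 to 0.77 for Cnp on the log2 scale. Mag and Mal lay above control in each, but for Mal in anxiety-susceptible rats the sign turned without control replicate 2. Olig1 lay above control in insusceptible rats and below it in both susceptible groups, but was above control in all 3 after quantile normalization. With 6 samples and no block for slide none of these differences passed the test. With slide as a block Mag, Mbp, Cnp and Cldn11 passed for depression-susceptible against control, beside 36.8% of all probes. After quantile normalization Mbp, by its brightest probe, was lower and Mal and Mobp higher in insusceptible than in control rats. The other bright Mbp probes differed by less on that scale. The 3 comparisons with control share the same control samples.

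RefSeq promoter windows of assembly GRCr8, 250 bases before to 50 after a gene's start, were listed for 7 of the 9 genes in 8 windows. Mog and Olig1 had no entry. They were searched on both strands for the SOX core ACAANG, found in 42.1% of 33469 promoters, and for the E-box CANNTG bound by helix-loop-helix factors, found in 72.1%. Cnp, Mal and Mobp are shown because Cnp and Mal had differences from control of opposite sign and Mobp had the most SOX matches of the windows. Capitals mark the SOX letters on either strand.
Cnp (chr10:86011254-86011553, plus strand): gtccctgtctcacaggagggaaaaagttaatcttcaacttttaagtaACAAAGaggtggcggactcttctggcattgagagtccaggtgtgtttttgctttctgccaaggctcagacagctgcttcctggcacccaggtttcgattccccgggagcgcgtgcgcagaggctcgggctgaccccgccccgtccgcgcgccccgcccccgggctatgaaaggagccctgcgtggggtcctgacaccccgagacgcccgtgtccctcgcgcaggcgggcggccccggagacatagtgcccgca
Mal (chr3:135341374-135341673, minus strand): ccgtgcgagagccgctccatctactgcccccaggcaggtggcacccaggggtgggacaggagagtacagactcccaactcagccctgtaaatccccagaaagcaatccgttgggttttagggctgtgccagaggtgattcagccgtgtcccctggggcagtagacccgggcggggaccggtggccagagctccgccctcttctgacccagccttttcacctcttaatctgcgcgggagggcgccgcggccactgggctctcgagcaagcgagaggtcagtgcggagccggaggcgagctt
Mobp (chr8:128746982-128747281, plus strand): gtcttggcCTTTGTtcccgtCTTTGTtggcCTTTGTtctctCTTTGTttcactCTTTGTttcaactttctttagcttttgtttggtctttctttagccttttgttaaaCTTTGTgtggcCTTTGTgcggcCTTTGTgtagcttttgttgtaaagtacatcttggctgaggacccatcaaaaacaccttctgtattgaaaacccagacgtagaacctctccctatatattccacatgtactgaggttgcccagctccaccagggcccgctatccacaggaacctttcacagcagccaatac
The Cnp window held 1 SOX match and 2 E-boxes. The Mal window held 0 SOX matches and 1 E-box. In the Mobp window there were 8 SOX matches and 1 E-box. Of the windows not shown, that of Mag had 2 SOX matches and 2 E-boxes, that of Cldn11 had 0 and 1, that of Olig2 had 0 of either, and the 2 windows of Mbp had 0 of either and 3 of each. These matches describe letters in a window and not binding.

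The level of Mbp was lower in each of the 4 stressed samples than in both control samples, and no difference passed the test without a block for slide. Depression-susceptible arrays had Mbp levels of 5.48, 5.46, 5.96 and 5.91 (replicates 1 to 4). Anxiety-susceptible arrays had 5.66, 5.57, 5.67 and 5.63, insusceptible arrays had 5.25, 5.27, 5.26 and 5.26, and control arrays had 6.34, 6.21, 5.91 and 6.0. The insusceptible and anxiety-susceptible arrays lay below all control arrays, while the depression-susceptible range overlapped that of control. The share of all probes without overlap with control is not given, here or for the genes below. Non-overlap therefore does not set a gene apart from other probes. On slide 1 the depression-susceptible sample had an Mbp level of 5.94 against 6.28 in control, and on slide 2 it had 5.47 against 5.96, so it was below control on both. The difference from control was -0.41 (SE 0.21, adjusted p = 0.289) in depression-susceptible, -0.48 (SE 0.26, adjusted p = 0.229) in the anxiety-susceptible and -0.85 (SE 0.26, adjusted p = 0.0798) in the insusceptible rats. Leaving out 1 sample moved the first of these between -0.65, without the depression-susceptible sample of slide 1, and -0.18, without that of slide 2. With slide as a block it passed the threshold (adjusted p = 0.0277), and with quantile normalization it was -0.06. The insusceptible value corresponds to a level 1.81-fold lower, with a 95% interval of -1.59 to -0.12 on the log2 scale. In whole tissue, fewer cells of a type and less RNA per cell cannot be told apart.

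Mbp had 6 probes with different RefSeq targets. The probe used above targets NM_001025293.1. Across the 6 samples, 5 probes had levels of 5.19 to 6.28. The sixth, which targets NM_001025289.1, had levels of -2.07 and -1.93 in depression-susceptible, -2.04 in anxiety-susceptible, -2.09 in insusceptible, and -2.10 and -2.01 in control samples. For the 5 bright probes the difference from control lay below 0 in each stressed group, although quantile normalization gave 0.03, 0.10 and 0.08 for 3 of them in depression-susceptible rats. For insusceptible against control it was -0.85, -0.61, -0.62, -0.53 and -0.65. The dim probe had -0.03 (SE 0.11, adjusted p = 0.843) there, 0.02 (SE 0.11, adjusted p = 0.928) for anxiety-susceptible and 0.05 (SE 0.09, adjusted p = 0.746) for depression-susceptible against control. None of the 6 probes passed the threshold in any of the 3 comparisons with control without a block. With slide as a block, which can be fitted for depression-susceptible against control, the 5 bright probes passed (adjusted p = 0.0277 to 0.0417) and the dim one did not (adjusted p = 0.418).

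**Figure D1:**
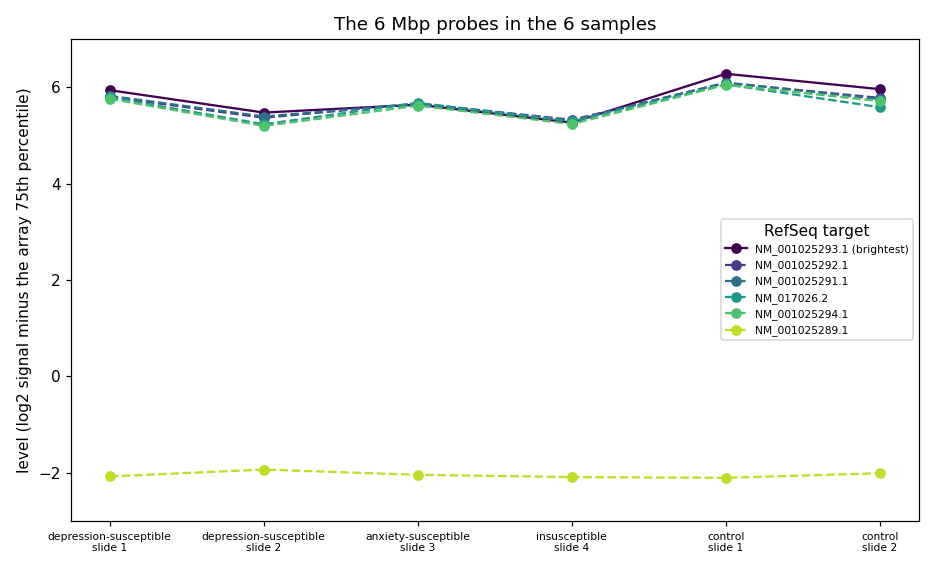
Level of the 6 Mbp probes in the 6 samples, as log2 processed signal minus the array's 75th percentile, one line per probe. The 5 bright probes lie between 5.19 and 6.28 with their highest values in control on slide 1, and the dim probe stays near -2 in every sample.

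Cnp showed the same order of groups. Its levels were 4.39, 4.38, 4.71 and 4.77 on depression-susceptible, 4.33, 4.36, 4.43 and 4.37 on anxiety-susceptible, 4.23, 4.24, 4.24 and 4.21 on insusceptible, and 5.17, 5.04, 4.93 and 4.87 on control arrays. No array of a stressed group reached the lowest control array, and how many other probes share this is not given. The difference from control was -0.44 (SE 0.16, adjusted p = 0.183) in depression-susceptible, -0.63 (SE 0.20, adjusted p = 0.0887) in the anxiety-susceptible and -0.77 (SE 0.20, adjusted p = 0.0585) in the insusceptible rats. None passed the threshold without a block for slide. Within slides, depression-susceptible minus control was -0.37 on slide 1 and -0.51 on slide 2, and with slide as a block this difference passed (adjusted p = 0.0258). Without the depression-susceptible sample of slide 2 it was -0.26, and without that of slide 1 it was -0.62.

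Cldn11 and Mobp were also below control in most stressed samples, by less. With quantile normalization Mobp was above control in all 3 stressed groups and Cldn11 in depression-susceptible and insusceptible rats. Cldn11 levels ran from 3.98 to 4.23 on depression-susceptible, 3.87 to 3.98 on anxiety-susceptible, 4.20 to 4.22 on insusceptible and 4.27 to 4.51 on control arrays, without overlap with control. Its difference from control was -0.25 (SE 0.12, adjusted p = 0.272), -0.47 (SE 0.15, adjusted p = 0.0926) and -0.18 (SE 0.15, adjusted p = 0.400) in the 3 stressed groups in that order. Mobp ran from 3.19 to 3.42 on depression-susceptible, 3.21 to 3.30 on anxiety-susceptible, 3.47 to 3.50 on insusceptible and 3.41 to 3.65 on control arrays. Only the anxiety-susceptible arrays stood clear of control for Mobp. Its differences from control were -0.20 (SE 0.10, adjusted p = 0.296), -0.30 (SE 0.13, adjusted p = 0.156) and -0.06 (SE 0.13, adjusted p = 0.747).

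Mal went the other way. Its levels were 2.16, 2.27, 2.14 and 2.13 on depression-susceptible, 1.92, 1.89, 1.97 and 1.96 on anxiety-susceptible, 2.56, 2.58, 2.61 and 2.56 on insusceptible, and 1.94, 1.36, 2.02 and 2.03 on control arrays. The insusceptible and depression-susceptible arrays lay above all control arrays, and the anxiety-susceptible arrays lay within the control range. The difference from control was 0.34 (SE 0.15, adjusted p = 0.243), 0.10 (SE 0.19, adjusted p = 0.713) and 0.74 (SE 0.19, adjusted p = 0.0558) in depression-susceptible, anxiety-susceptible and insusceptible rats. Control replicate 2, at 1.36, stood apart from its group. Without that array the insusceptible difference was 0.60 and passed the threshold (adjusted p = 0.0309), the depression-susceptible one was 0.19 (adjusted p = 0.242) and the anxiety-susceptible one was -0.05 (adjusted p = 0.766).

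Mag was above control in each stressed group and Mog below it, both by small amounts. Mag levels ran from 0.67 to 0.95 on depression-susceptible, 0.61 to 0.73 on anxiety-susceptible, 0.67 to 0.73 on insusceptible and 0.50 to 0.58 on control arrays, with no overlap with control. Its difference from control was 0.28 (SE 0.08, adjusted p = 0.122), 0.12 (SE 0.10, adjusted p = 0.403) and 0.15 (SE 0.10, adjusted p = 0.308). Mog, the surface glycoprotein, ran from 1.52 to 1.79 on depression-susceptible, 1.60 to 1.73 on anxiety-susceptible, 1.64 to 1.68 on insusceptible and 1.68 to 1.94 on control arrays. Its differences from control were -0.14 (SE 0.12, adjusted p = 0.495), -0.16 (SE 0.15, adjusted p = 0.455) and -0.15 (SE 0.15, adjusted p = 0.478). None passed, and the first did not pass with slide as a block either. Within slides, depression-susceptible minus control was -0.15 on slide 1 and -0.13 on slide 2. With quantile normalization Mog was above control by 0.06 in the anxiety-susceptible and 0.09 in the insusceptible rats.

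Olig1 levels were 3.30, 3.24, 3.21 and 3.23 on depression-susceptible, 3.32, 3.27, 3.26 and 3.25 on anxiety-susceptible, 3.63, 3.62, 3.62 and 3.64 on insusceptible, and 3.47, 3.34, 3.44 and 3.46 on control arrays. Its insusceptible arrays were thus the highest of all groups, and those of both susceptible groups the lowest. With quantile normalization the insusceptible sample was again the highest, at 15.31, but the direction turned in the others. Olig1 was then at 14.66 and 14.87 in the depression-susceptible samples, 14.95 in the anxiety-susceptible one, and 14.57 and 14.79 in control samples, which puts both susceptible groups above control, by 0.09 and 0.27. Its difference from control was -0.18 (SE 0.07, adjusted p = 0.207), -0.15 (SE 0.09, adjusted p = 0.265) and 0.20 (SE 0.09, adjusted p = 0.171). Depression-susceptible minus insusceptible was -0.38 (SE 0.09, adjusted p = 0.102), and the F test of any difference among the 4 groups gave an adjusted p of 0.110, the lowest of the 8 genes.

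**Figure D2:**
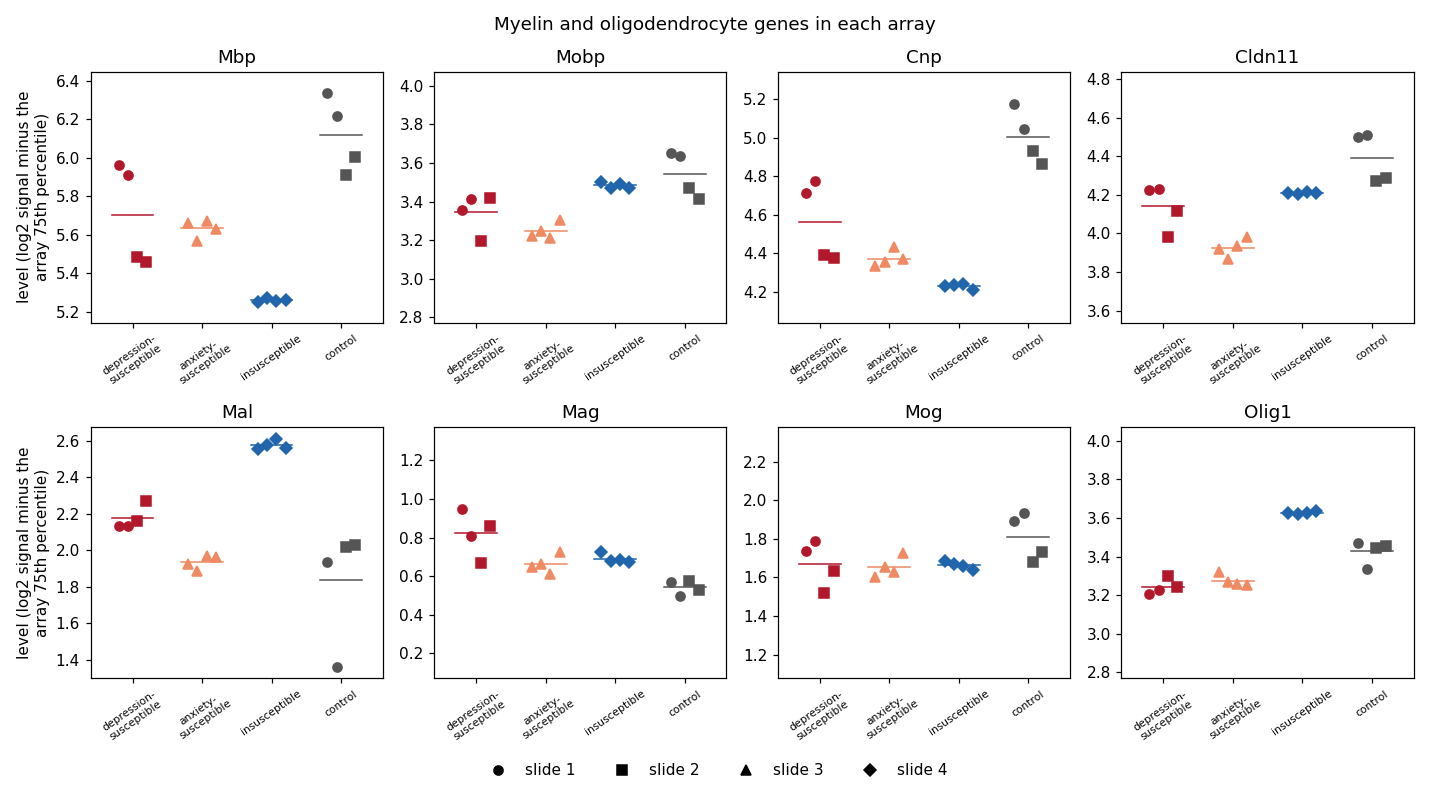
Level of the 8 genes on each of the 16 arrays, as log2 processed signal minus the array's 75th percentile, by group. Mbp, Cnp and Cldn11 have their highest arrays in control, Mal and Olig1 in insusceptible rats, and Mag in depression-susceptible rats.

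In the 6-sample fit 0 of 8 genes passed the threshold in each comparison with control, while 9.89% of all probes passed for depression-susceptible, 28% for anxiety-susceptible and 28.9% for insusceptible against control. At an unadjusted p under 0.05 there were 1, 2 and 3 genes in those comparisons: Mag in the first, Cnp and Cldn11 in the second, and Mbp, Cnp and Mal in the third. Over all probes, 5249 of 17850, 8152 of 17863 and 8239 of 17863 were under that limit, so these genes do not stand out. The median difference of the 8 genes was -0.19, -0.23 and -0.10, beside -0.01, -0.01 and 0.04 for all probes. Most of the 8 had a mean level of at least 3, and all probes of such levels had medians of -0.32, -0.36 and -0.39. After quantile normalization the median of the 8 genes was 0.08, 0.11 and 0.25, beside -0.02, -0.05 and -0.01 for all probes. Taking the 16 arrays as separate samples, 7 genes passed against control for depression-susceptible (2 higher and 5 lower), 7 for anxiety-susceptible (1 higher and 6 lower) and 7 for insusceptible rats (3 higher and 4 lower). The shares of all probes were then 49.3% (23.4% higher and 25.9% lower), 71.5% (34.9% and 36.6%) and 72.8% (38.4% and 34.4%). These p-values take arrays of 1 slide as independent, although such arrays differed about as little as repeated spots. Slides 1 and 2 did differ, so the p-values are too small. Among probes with a mean level of at least 3 the median gap was 0.22 in depression-susceptible and 0.24 in control samples. With slide as a block in the 6-sample fit, 4 genes passed for depression-susceptible against control, with Mag higher and Mbp, Cnp and Cldn11 lower, beside 36.8% of all probes (18.8% higher and 18% lower).

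Between the stressed groups, 0 of 8 genes passed in each of the 3 comparisons in the 6-sample fit. At an unadjusted p under 0.05 there were 1 for depression-susceptible against insusceptible (Olig1), 2 for anxiety-susceptible against insusceptible (Mal and Olig1) and 0 for depression-susceptible against anxiety-susceptible rats. Over all probes, 5430 of 17856, 1990 of 17885 and 5523 of 17856 had an unadjusted p under 0.05. At the adjusted threshold 0.0672%, 0.0895% and 0.291% of all probes passed. Mal was -0.64 (SE 0.22, adjusted p = 0.430) in anxiety-susceptible minus insusceptible and -0.40 (SE 0.19, adjusted p = 0.238) in depression-susceptible minus insusceptible rats. For Mbp, depression-susceptible minus anxiety-susceptible was 0.07 (SE 0.26, adjusted p = 0.872), and the 95% interval was -0.66 to 0.80. The F test over the 4 groups called 0 of 8 genes, beside 22% of all probes. At an unadjusted p under 0.05 there was 1 of the 8 genes, beside 8059 of 17850 probes.

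Most probes of these genes were bright, 5 of 8 with a mean level of at least 3, and bright probes as a whole lay below control on this scale. Brightness here describes a probe and not how abundant a transcript is. The Mbp probe was at the 99.9th percentile of signal, Cnp at the 98.4th, Cldn11 at the 97.6th, Mobp at the 94.8th and Olig1 at the 94.7th. Mal was at the 86.7th percentile, Mog at the 83.0th and Mag at the 72.6th. Among the 1295 probes with a mean level of at least 3, a limit set after seeing the data, the median difference from control was -0.32 in depression-susceptible, -0.36 in the anxiety-susceptible and -0.39 in the insusceptible rats. The differences of Cnp and of the brightest Mbp probe were below this median in each group. Those of Mobp and Olig1 were above it in each group, and that of Cldn11 was below it only in the anxiety-susceptible rats. Among the same probes, the slide 1 sample exceeded the slide 2 sample by a median of 0.22 in depression-susceptible and 0.24 in control rats.

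**Figure D3:**
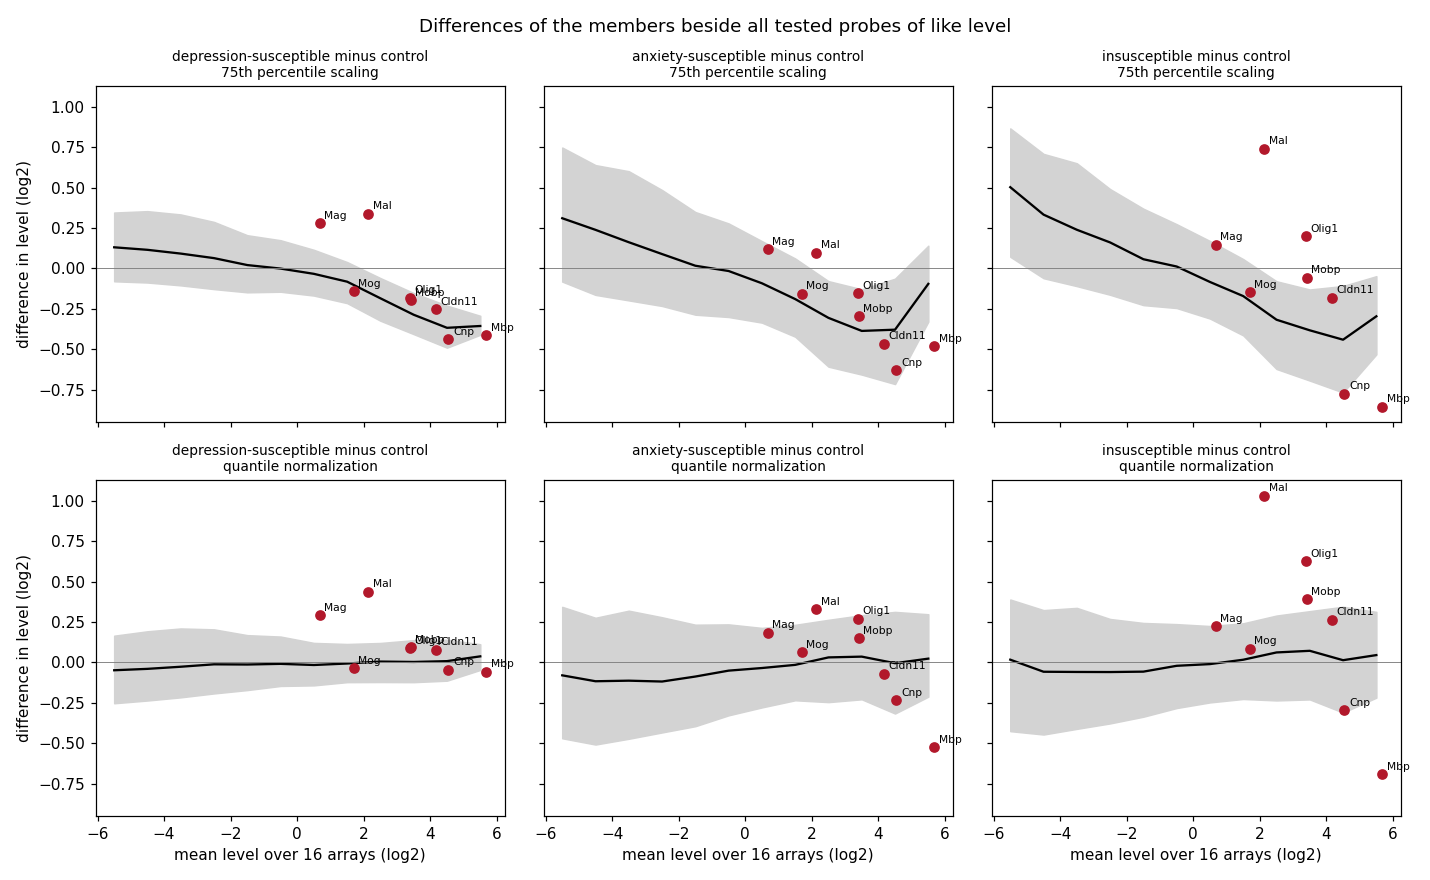
Median difference from control of all tested probes by mean level, for the 3 stressed groups, with the 8 genes as points, under 75th-percentile scaling and under quantile normalization. Over probes with a level of at least 3 the median is -0.32, -0.36 and -0.39 under the first and 0.01, 0.02 and 0.05 under the second.

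Quantile normalization, which gives all arrays the same distribution of values, removed this shift of bright probes and moved most of the differences of the 8 genes upward. On that scale the median differences of the bright probes were 0.01, 0.02 and 0.05. Mbp differed from control by -0.06 (adjusted p = 0.788) in depression-susceptible, -0.52 (adjusted p = 0.0620) in the anxiety-susceptible and -0.69 (adjusted p = 0.0377) in the insusceptible rats. The quantile-normalized log2 value of Mbp was 17.61 and 17.44 in depression-susceptible, 17.06 in anxiety-susceptible, 16.90 in insusceptible, and 17.69 and 17.48 in control samples. The other bright Mbp probes had 17.13 to 17.43, 17.05 to 17.11, 16.87 to 16.96, and 17.07 to 17.38 in that order. Each lay below control by less than the brightest probe in the anxiety-susceptible and insusceptible rats. Whether they passed on this scale is not reported here. Mal differed from control by 0.44 (adjusted p = 0.203), 0.33 (adjusted p = 0.292) and 1.03 (adjusted p = 0.0376), with values of 13.59 and 13.77, 13.57, 14.27, and 13.04 and 13.44 in the same order of samples. Mobp changed sign against the 75th-percentile scale in each group, with 0.09 (adjusted p = 0.479), 0.15 (adjusted p = 0.263) and 0.39 (adjusted p = 0.0464).

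On the quantile scale, then, 3 of 8 genes passed for insusceptible against control, Mal and Mobp higher and Mbp lower, beside 28.7% of all probes (13% higher and 15.7% lower). For depression-susceptible and anxiety-susceptible against control 0 of 8 passed, beside 10.1% and 30.5% of all probes. At an unadjusted p under 0.05 there was 1 gene in each, beside 5094 of 17850 and 8167 of 17863 probes. Cnp differed from control by -0.05, -0.24 and -0.30 in depression-susceptible, anxiety-susceptible and insusceptible rats on this scale, all smaller than on the 75th-percentile scale. Mag and Mal were above control in each stressed group on both scales, and Mbp and Cnp below it on both. On the 75th-percentile scale the sign of Mal in anxiety-susceptible rats rested on control replicate 2. Cldn11, Mog and Olig1 changed sign between the scales in at least 1 of these comparisons. Olig1 reached 0.63 (adjusted p = 0.0543) in insusceptible rats on the quantile scale.

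**Figure D4:**
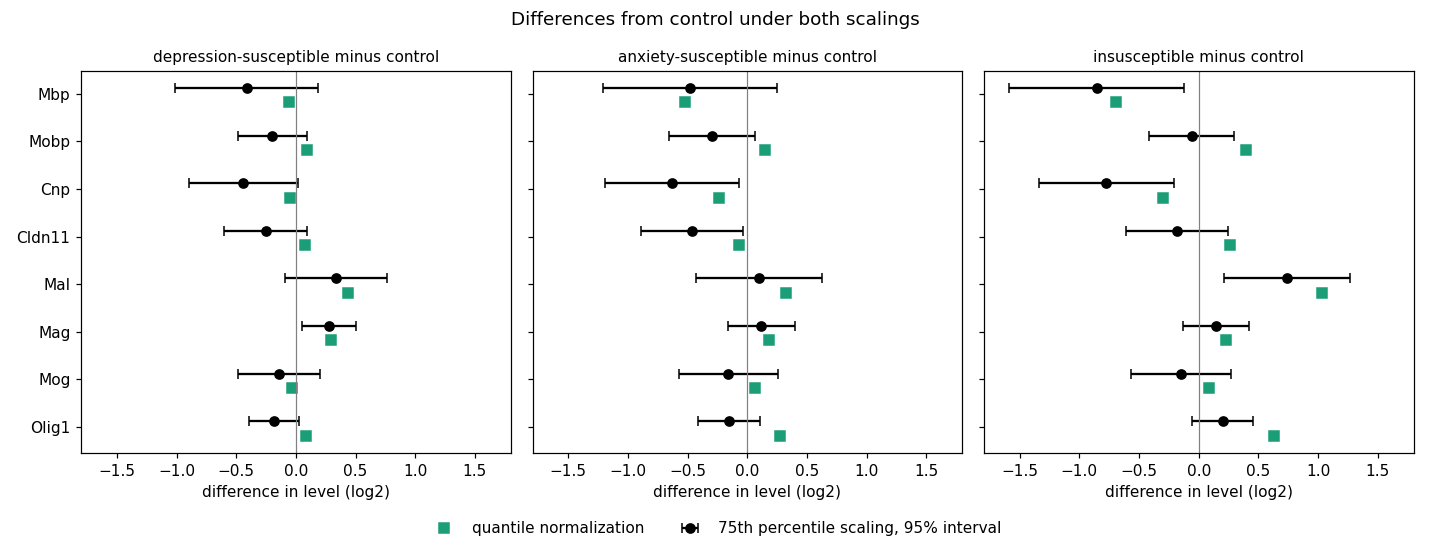
Difference from control of the 8 genes in each stressed group under 75th-percentile scaling and under quantile normalization, on the log2 scale. The 95% intervals are drawn for the 75th-percentile scaling only. Mbp and Cnp lie below 0 and Mag and Mal above it on both scales, while Mobp, Cldn11, Mog and Olig1 change sign between the scales in at least 1 group.

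Beyond these genes, 83 genes of 6 oligodendrocyte lists were tested. With 6 samples, 4 were higher and 2 lower in depression-susceptible, 5 higher and 15 lower in anxiety-susceptible, and 6 higher and 11 lower in insusceptible than in control rats. The shares of all probes that passed were 7.28% higher and 2.62% lower, 14.8% and 13.2%, and 17.1% and 11.8% in these comparisons. Of the 83 genes, 0 passed between any pair of stressed groups, while 52, 28 and 59 passed with 16 arrays in depression-susceptible against insusceptible, anxiety-susceptible against insusceptible and depression-susceptible against anxiety-susceptible rats, beside 61.7%, 36% and 61.8% of all probes. The totals against control rested on having all 6 samples. Leaving out 1 array gave 4 to 6, 15 to 21 and 13 to 17 genes. Leaving out the depression-susceptible or control sample of slide 1 or of slide 2 left 0 genes for depression-susceptible, 0 to 3 for anxiety-susceptible and 3 for insusceptible rats. The share of all probes then lay between 2.29% and 12.6%. After normexp background correction 0 of the 83 genes passed against control, as did 0 of all probes, with 514, 994 and 975 probes at an unadjusted p under 0.05. Under that correction control replicate 3 and insusceptible replicate 2 stood apart from their groups. The dim Mbp probe was at -1.09 and -1.10 on them. Other control arrays had -1.99 to -1.85 and other insusceptible ones -1.83 to -1.71. The brightest Mbp probe was at 5.38 and 4.69, against 5.77 to 6.14 and 4.99 to 5.05. Whether the loss of calls came from these arrays was not tested.

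Of the 25 other genes of compact myelin and mature oligodendrocytes, 1 was higher and 0 lower in depression-susceptible, 1 higher and 5 lower in anxiety-susceptible, and 2 higher and 4 lower in insusceptible than in control rats, with median differences of 0.05, -0.09 and 0.01. Hapln2, a link protein of the matrix at nodes of Ranvier, had levels of 2.02 and 1.91 in depression-susceptible, 2.23 in anxiety-susceptible, 2.18 in insusceptible, and 1.37 and 1.17 in control samples. It was higher than control by 0.70 (SE 0.11, adjusted p = 0.039), 0.96 (SE 0.13, adjusted p = 0.021) and 0.91 (SE 0.13, adjusted p = 0.021). Ermn, which encodes the cytoskeletal protein ermin of mature oligodendrocytes, differed from control by -0.83 (adjusted p = 0.020) in the anxiety-susceptible and -0.64 (adjusted p = 0.029) in the insusceptible rats. Ninj2, an adhesion molecule also made by other glia, had -0.80 (adjusted p = 0.015) and -0.88 (adjusted p = 0.013). Gjb1, the gap junction protein connexin 32, had -1.54 (adjusted p = 0.041) and -1.73 (adjusted p = 0.036), but 3 of the 4 control arrays and the depression-susceptible sample of slide 1 were dropped there as outlier spots.

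Of 19 genes of myelin lipid synthesis, 2 were higher and 0 lower in depression-susceptible, 1 higher and 5 lower in anxiety-susceptible, and 1 higher and 2 lower in insusceptible than in control rats. Their median differences were -0.01, -0.19 and -0.13. Elovl1, an elongase of very long chain fatty acids, was higher than control in each stressed group, by 0.77 (SE 0.10, adjusted p = 0.027), 0.93 (SE 0.12, adjusted p = 0.019) and 1.23 (SE 0.12, adjusted p = 0.013). Its levels were -1.01 and -0.82 in depression-susceptible, -0.76 in anxiety-susceptible, -0.46 in insusceptible, and -1.71 and -1.66 in control samples, with no overlap. Lss, the lanosterol synthase of the cholesterol pathway, was higher in depression-susceptible rats by 0.68 (adjusted p = 0.024). In anxiety-susceptible rats Hmgcs1 and Idi1 of the same pathway differed from control by -0.78 (adjusted p = 0.028) and -0.68 (adjusted p = 0.040), and Sptlc2, a subunit of the enzyme that starts sphingolipid synthesis, by -0.79 (adjusted p = 0.020). In insusceptible rats Sptlc2 had -0.60 (adjusted p = 0.030).

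The 6 tested oligodendrocyte transcription factor genes gave 0 calls against control in each stressed group, with 4, 5 and 5 called on 16 arrays. Their median differences were -0.01, -0.26 and -0.15. Among 11 tested oligodendrocyte precursor genes, 1 was higher and 0 lower in depression-susceptible, and 2 higher and 1 lower in each of anxiety-susceptible and insusceptible rats. Tnr, the matrix protein tenascin-R, was higher by 0.99 (adjusted p = 0.025) in depression-susceptible and 0.64 (adjusted p = 0.0498) in insusceptible rats. Cspg5, a proteoglycan also found on neurons, was lower than control, at -0.57 (adjusted p = 0.025) in the anxiety-susceptible and -0.63 (adjusted p = 0.021) in the insusceptible rats, and did not pass on the quantile scale (adjusted p = 0.105 and 0.080). Neu4, a sialidase, passed in anxiety-susceptible rats at 0.63 (adjusted p = 0.037) and did not on the quantile scale, at 0.22 (adjusted p = 0.239).

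Of 13 genes for signals to oligodendrocytes and their receptors, 0 passed in depression-susceptible, and 1 was higher and 1 lower in each of the other stressed groups against control. Fgfr2, a fibroblast growth factor receptor, was the lower gene in both, at -0.76 (adjusted p = 0.042) in the anxiety-susceptible and -0.74 (adjusted p = 0.043) in the insusceptible rats. The higher genes were Notch1, a receptor that holds back differentiation, at 0.46 (adjusted p = 0.045) in anxiety-susceptible, and Igf1r, the receptor of insulin-like growth factor, at 0.80 (adjusted p = 0.045) in insusceptible rats. Of 9 genes of the node and paranode, where myelin ends and sodium channels gather on the axon, 0 were higher and 2, 3 and 3 lower in the 3 stressed groups. These are mostly axonal genes. Nrcam, an adhesion molecule of the node, was lower in each, at -0.94 (adjusted p = 0.041), -1.33 (adjusted p = 0.020) and -1.05 (adjusted p = 0.029). Cntn1, the paranodal contactin, was lower in depression-susceptible rats at -0.66 (adjusted p = 0.027). Ank3, the node scaffold ankyrin-G, and the sodium channel gene Scn8a were lower in anxiety-susceptible rats, at -0.89 (adjusted p = 0.013) and -0.70 (adjusted p = 0.019), and in insusceptible rats, at -0.48 (adjusted p = 0.033) and -0.71 (adjusted p = 0.018).

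Some of these calls ended under another scaling. On the quantile scale Fgfr2 (adjusted p = 0.064), Ank3 (adjusted p = 0.059) and Tnr (adjusted p = 0.079) no longer passed in insusceptible against control rats. In anxiety-susceptible rats Hmgcs1 and Fgfr2 still passed there but with smaller differences, -0.43 (adjusted p = 0.030) and -0.37 (adjusted p = 0.048). With normexp correction Scn8a, Sptlc2 and Nrcam differed from control by -0.27, -0.33 and -0.69 in insusceptible rats, and Neu4 by 0.06 in anxiety-susceptible rats. Control replicate 3 and insusceptible replicate 2 stood apart from their groups under that correction, as given above.

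**Figure D5:**
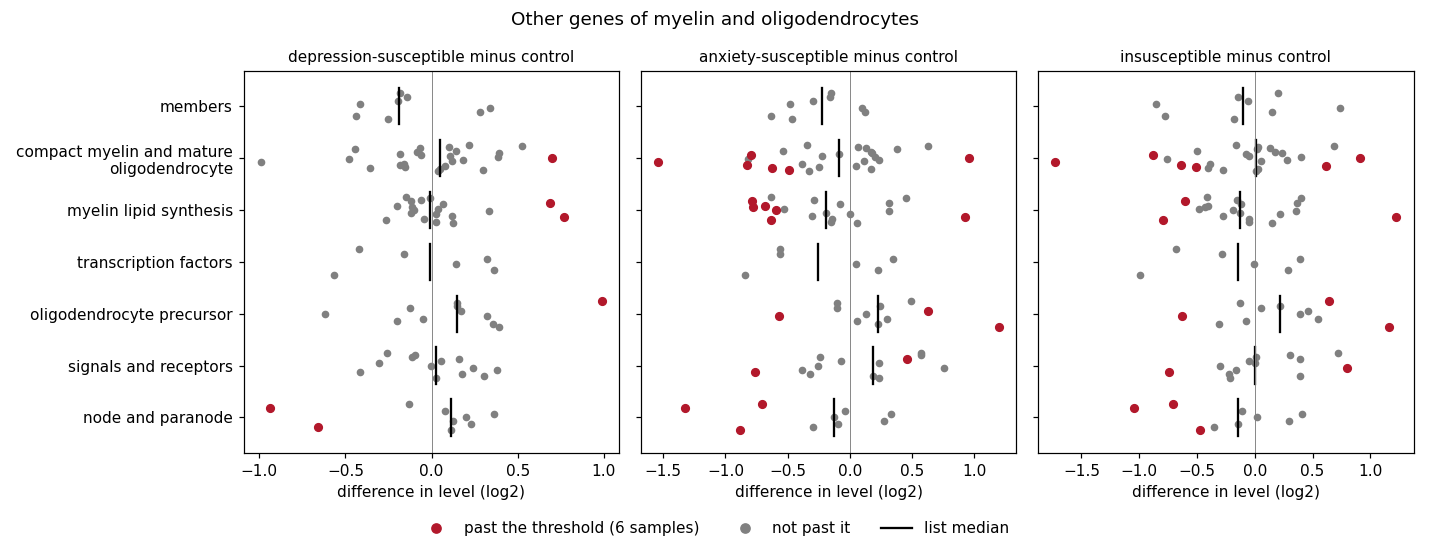
Difference from control of every tested gene among the 8 myelin and oligodendrocyte genes and in 6 oligodendrocyte lists in the 3 stressed groups, on the log2 scale, with calls of the 6-sample fit marked. None of the 8 is marked, and the lists hold calls on both sides of 0.

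Markers of other cell types moved with the same comparisons. All 20 tested choroid plexus markers were lower in depression-susceptible than in control rats, 17 of 20 in anxiety-susceptible and 19 of 20 in insusceptible rats, with median differences of -3.17, -1.70 and -3.32. Their median level lay between -3.57 and -3.39 on depression-susceptible, -1.86 and -1.8 on anxiety-susceptible, -4.56 and -4.41 on insusceptible, and 0.31 and 0.48 on control arrays. Of 8 red blood cell markers, 6 were higher and 1 lower in depression-susceptible, 0 higher and 3 lower in anxiety-susceptible, and 5 higher and 1 lower in insusceptible rats. Of 15 neuron markers, 0 were higher and 1 lower, 0 higher and 7 lower, and 1 higher and 5 lower, with median differences of -0.11, -0.61 and -0.46. Of the hippocampal neuron markers tested, a list made after seeing the data, only Wfs1 passed against control without overlap of arrays. Wfs1, a marker of CA1 pyramidal neurons, was lower in each stressed group, at -0.71 (adjusted p = 0.031), -1.60 (adjusted p = 0.009) and -1.51 (adjusted p = 0.009). It does not stand for the other markers of that list. Of 15 microglia markers 3, 4 and 4 were lower and 0, 0 and 1 higher. Of 11 astrocyte markers 1 was higher, in insusceptible rats. The 5 tested Schwann cell markers had median levels of -4.38 to -3.42 over all arrays. The part of these markers in the differences of the 8 myelin and oligodendrocyte genes was not tested.

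The mean centred profile of the 7 myelin genes (Olig1 left out) was 0.08 and -0.10 in depression-susceptible, -0.15 in anxiety-susceptible, -0.05 in insusceptible, and 0.16 and 0.05 in control samples. Of 11194 symbols compared over these 6 samples, those closest to it by root mean square difference were Slc35a4 at 0.02 and Dok4, Gucy1b1, Cdip1 and Dram2 at 0.03 each. The profile spans little, as it averages genes on both sides of 0. In control on slide 1 Mbp was at 0.52, Cnp at 0.49, and Mog, Mobp and Cldn11 at 0.20 to 0.30. Mag was at -0.15 and Mal at -0.44 there. Many genes lie near the profile: 90 symbols lay closer than Mog, 5791 closer than Cnp, 6719 closer than Mbp and 8634 closer than Mal. Closeness to it therefore does not mark a gene as like the myelin genes. On the quantile scale the 5 closest were other genes, with 0 shared.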

How the data were processed

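Hippocampal RNA was measured on 16 single-colour arrays in 4 groups of 4. After depletion of ribosomal RNA, cRNA was made by random priming along whole transcripts, per the labels. Per the file headers, the deposited spot intensity came from Agilent Feature Extraction 11.0.1.1 (protocol GE1_1100_Jul11), which had subtracted background within each array. A deposited table of log2 values, with column medians of 7.50, tracked the scanner values (correlation across probes at least 0.998 on every array). Its software was not named in the sources used here, its centring is unknown, and it was used as an alternative.

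Control and outlier spots were removed before replicate spots were averaged. Each array's log2 processed signal was lowered by its 75th percentile. Of 24684 probes, 17885 were well above background on at least 4 arrays and were tested. On single arrays 62.2% to 74.0% of probes passed that background test, with 0 saturated spots. The number of arrays limits the precision. Names came from the RefSeq target of a probe through a gene table of GRCr8, used for names and promoter windows only: 14274 of 15323 messenger RNA probes matched. Probe positions and probe sequences were not used here.

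A mean per group was fitted with limma 3.58.1 in R 4.3.3 to 6 samples (2 residual degrees of freedom), with moderated two-sided tests for the 6 pairs of groups and an F test. Python 3.11.15 read the files and drew the plots. The steps were tested on simulated data for depression-susceptible against control over 17885 probes: 1% of 100 probes changed 1.5-fold and 54% of 100 changed 2-fold were called, with 6 unchanged probes. Alternatives were 16 separate arrays, the replicate number or the slide as a block, quantile or median scaling, normexp background correction (offset 50), the deposited table, other filters, the mean of a gene's probes, and leaving out arrays or samples. The normexp step used each spot's median signal, since the files hold no mean signal.

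Replicate numbers did not pair the arrays, since deviations of arrays with the same number correlated at -0.557 to 0.130 over 24 pairs. All 8 measured genes are reported. Other genes are named where they passed the threshold without overlap of arrays, at most 4 of a list and comparison, or 3 for other cell types. A few genes that met this rule are not reported here. Genes and lists were chosen with earlier results of these data known.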

Additional observations from a re-analysis of the deposited data

Results flagged for a closer look

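Within groups of 4 arrays, the highest or lowest array was compared with the rest by the size of its gap, over the 32 combinations of gene and group. Chance alone flags about 1 group in 20 by this measure, and 2 stood out. The Mal level of control replicate 2 was 1.36, below the other control arrays at 1.94 to 2.03. It shared slide 1 with control replicate 1. The Mag level of insusceptible replicate 1 was 0.727, above the other insusceptible arrays at 0.674 to 0.681, a gap that is small beside the SE of 0.10 between slides.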

How the results depend on the processing

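The 2 residual degrees of freedom, and groups that lie on slides of their own, limit every statement above. In the 6-sample fit 0 of 8 genes passed against control in all 3 comparisons. With 16 arrays as separate samples there were 7, 7 and 7 for depression-susceptible, anxiety-susceptible and insusceptible against control, and 5, 5, 2 and 7 for depression-susceptible against insusceptible, anxiety-susceptible against insusceptible, depression-susceptible against anxiety-susceptible and the F test, which called 86.3% of all probes. With the replicate number as a block on 16 arrays these were 7, 5, 6, 4, 5, 2 and 7, beside 45.8%, 69.3%, 70.6%, 58.4%, 31%, 58.7% and 83.7% of all probes. The slide as a block gave 4 for depression-susceptible against control, beside 36.8%. For insusceptible against control quantile normalization gave 3 (28.7% of all probes), median scaling 1 (30.2%), the deposited values 2 (27%), probes above background on all arrays 2 (34.1%), and leaving out 1 array or sample 0 to 1. Leaving out arrays or samples gave 0 in the other comparisons. The cause of these shifts was not tested, beyond the larger number of samples in the fits to 16 arrays.

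Signs turned for several small differences, none of which passed unless stated. Against control, with quantile normalization and with the deposited values, Mog was 0.0641 and 0.0703 in anxiety-susceptible and 0.0850 and 0.0912 in insusceptible rats. Mobp was 0.0935 and 0.0956 in depression-susceptible, 0.151 and 0.146 in anxiety-susceptible, and 0.392 and 0.387 in insusceptible rats (both past the threshold). Cldn11 was 0.0792 and 0.0814 in depression-susceptible and 0.265 and 0.264 in insusceptible rats, and Olig1 was 0.0866 and 0.0907 in depression-susceptible and 0.272 and 0.271 in anxiety-susceptible rats. With the same alternatives, Mog was -0.120 and -0.120 in depression-susceptible minus insusceptible and -0.0991 and -0.0993 in depression-susceptible minus anxiety-susceptible rats, and Mobp was -0.0574 and -0.0508 in depression-susceptible minus anxiety-susceptible rats. For Mog in anxiety-susceptible minus insusceptible rats, median scaling gave 0.000802 and normexp 0.00277, and normexp gave 0.00652 for Cldn11 in depression-susceptible minus insusceptible rats. The mean of the Mbp probes gave -0.0549 in depression-susceptible minus anxiety-susceptible rats. The cause was not tested.

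With 1 array or sample left out, depression-susceptible minus anxiety-susceptible ranged from -0.163 to 0.302 for Mbp and from -0.0753 to 0.110 for Mog. Mog in depression-susceptible minus insusceptible ranged from -0.0855 to 0.0999 and in anxiety-susceptible minus insusceptible from -0.0344 to 0.00657. Mobp in insusceptible minus control ranged from -0.159 to 0.0427, Mal in anxiety-susceptible minus control from -0.0883 to 0.285, and Cldn11 in depression-susceptible minus insusceptible from -0.161 to 0.0197. Counts for the 6 oligodendrocyte lists together, against control in depression-susceptible, anxiety-susceptible and insusceptible rats, were 9, 30 and 28 with quantile normalization, 9, 27 and 28 with the deposited values, and 0, 8 and 14 without a filter on dim probes, against 6, 20 and 17. The shares of all probes were 10.1%, 30.5% and 28.7%, then 9.59%, 28.5% and 27%, and 4.12%, 9.73% and 33%, against 9.89%, 28% and 28.9%. Over all leave-out settings, the other named genes kept their call in 585 cases and lost it in 151, mostly where a whole sample was left out, which leaves fewer degrees of freedom.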
